A study of Mus musculus with 2 samples.

Results

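A set of 9 genes used as markers of monocytes newly recruited from blood was followed in cells sorted from subcutaneous mouse tumors. The genes were Ly6c1, Ly6c2, Cd177, Gpr141, Hp, Lyz1, F13a1, Plac8 and Nr4a1, and several of them are not particular to these cells. The 9 genes were chosen by name from the 22886 genes that the deposited tables hold, and each of them was found on 1 row. The series consisted of 2 RNA sequencing libraries of polyA RNA, 1 from mice injected with vehicle and 1 from mice injected with clodronate, which in liposomes is used to deplete phagocytes. Both came from wild type C57BL/6 mice with a subcutaneous LLC tumor (Lewis lung carcinoma, a transplantable mouse lung tumor line), from which the labelled aerobic tumor cells had been sorted by flow cytometry. The labels give neither the number of mice per library nor the dose, the time or the gate of the sort. The growth protocol in the labels describes a hematopoietic cell line, which goes against the tissue they name.

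Monocytes are made in the bone marrow and circulate in blood as 2 main populations in the mouse. Classical monocytes carry Ly6C on their surface, leave the marrow through the chemokine receptor CCR2 and enter inflamed tissue and tumors, where they mature into macrophages and lose Ly6C. Non-classical monocytes have little Ly6C, depend on the nuclear receptor NR4A1 and patrol the vessel wall. Several genes that mark recruited monocytes are not particular to them, since neutrophils carry CD177, endothelial cells express Ly6c1 and many stimulated cells express Nr4a1.

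The values are RPKM, read numbers divided by transcript length and library size, and a log2 ratio is the log2 of the clodronate over the vehicle value after 1 RPKM was added to each, which makes ratios of weakly expressed genes smaller than they are. A positive ratio means a higher value in the clodronate library. With 1 library per condition no difference could be set against a spread between replicates, and no p-value is given. Multiplied by the transcript length, the lowest values fell on regular steps, as single reads would give, and the steps put the vehicle library at about 13800000 and the clodronate library at about 11300000 mapped reads. Of the loci with up to 10 estimated reads, 71.1% in the vehicle and 72.3% in the clodronate library lay within 0.1 of a whole read. Read numbers below are estimates from these steps, and their 95% intervals cover counting error only.

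The cells under the label were rich in macrophage RNA. Of 16 genes of mature macrophages 15 had at least 10 RPKM in both libraries, with the complement gene C1qb at 3372 RPKM in vehicle and 3384 RPKM in clodronate. The median log2 ratio of the list was 0.12, with 10 genes higher and 6 lower in clodronate, where 51.6% of all genes compared were higher. The ratios ran from -0.96 for C1qc, another complement gene, at 3984 and 2043 RPKM, to 1.23 for Cd163. Of 8 epithelial genes 4, among them Epcam, stood at 0 in each library, and all 8 summed to 14.98 RPKM in vehicle and 10.97 RPKM in clodronate, and the median log2 ratio of 4 genes was -0.47. The 10 fibroblast genes summed to 160 and 76.9 RPKM, and the median log2 ratio of 8 genes was -0.77. The part of these other cells in the values of the monocyte genes was not tested.

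The monocyte marker genes did not differ in one direction between the libraries. Ly6c1, Ly6c2, Plac8 and F13a1 had higher values in the clodronate library, Hp, Gpr141 and Lyz1 had lower ones, and Nr4a1 was nearly level. Cd177 was listed at 0 in the vehicle library. In such bulk libraries, fewer cells of a type and less of its RNA per cell cannot be told apart.

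The levels covered a wide range. Lyz1 was the 7th most abundant gene of the vehicle library and the 20th of the clodronate library. Nr4a1, F13a1, Plac8 and Ly6c2 followed in this order in both libraries, and the other 4 genes lay below 5 RPKM in each. Among those 4 the order differed, with Hp, Gpr141, Ly6c1 and Cd177 from high to low in vehicle and Ly6c1, Gpr141, Hp and Cd177 in clodronate. No spread between samples was available to say which neighbours in these orders differ.

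**Figure D1:**
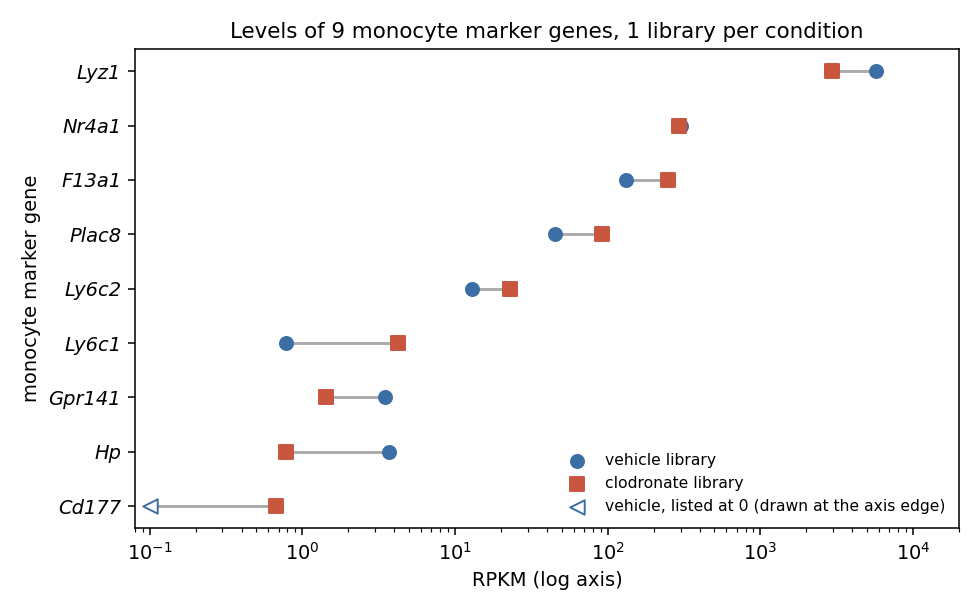
RPKM of the 9 monocyte marker genes on a log axis, with a circle for the vehicle library and a square for the clodronate library, 1 library each. The squares lie to the right of the circles for Plac8, F13a1, Ly6c1 and Ly6c2 and to the left for Hp, Gpr141 and Lyz1, the pair of Nr4a1 nearly coincides at 303 and 294 RPKM, and the open triangle marks Cd177, which was listed at 0 in vehicle.

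Of the 9 genes 8 averaged 1 RPKM or more over the libraries, the minimum for a comparison, and Cd177 did not. Of the 8 genes 4 had a higher and 4 a lower value in the clodronate library, where 51.6% of all genes compared were higher, and their median log2 ratio was 0.37, against 0.019 over all 10982 genes that passed the same minimum. None of the 8 reached 3-fold in either direction on the scale with 1 RPKM added, while 2.86% of the 10982 genes did so toward clodronate and 2.32% toward vehicle. At 2-fold, Ly6c1 and Plac8 were higher and Hp was lower, where 6.95% of all genes were higher and 6.77% lower. Plac8 lay at the limit, with a log2 ratio just below 1 when ratios were centred on the median (0.98), after upper quartile scaling (0.94) and as a ratio of estimated reads (0.99). The ratio of Plac8 was 1.02 when 0.1 RPKM was added instead of 1, and 1.36 once GC content and length were corrected for. Large ratios were more frequent among weakly expressed genes, to which Ly6c1, Gpr141 and Hp belong. Of 3025 genes with a mean from 1 to 5 RPKM, 13.8% were 2-fold or more higher and 12.8% were 2-fold or more lower, whereas the shares were 3.42% and 3.62% among 5913 genes that averaged 10 RPKM or more.

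**Figure D2:**
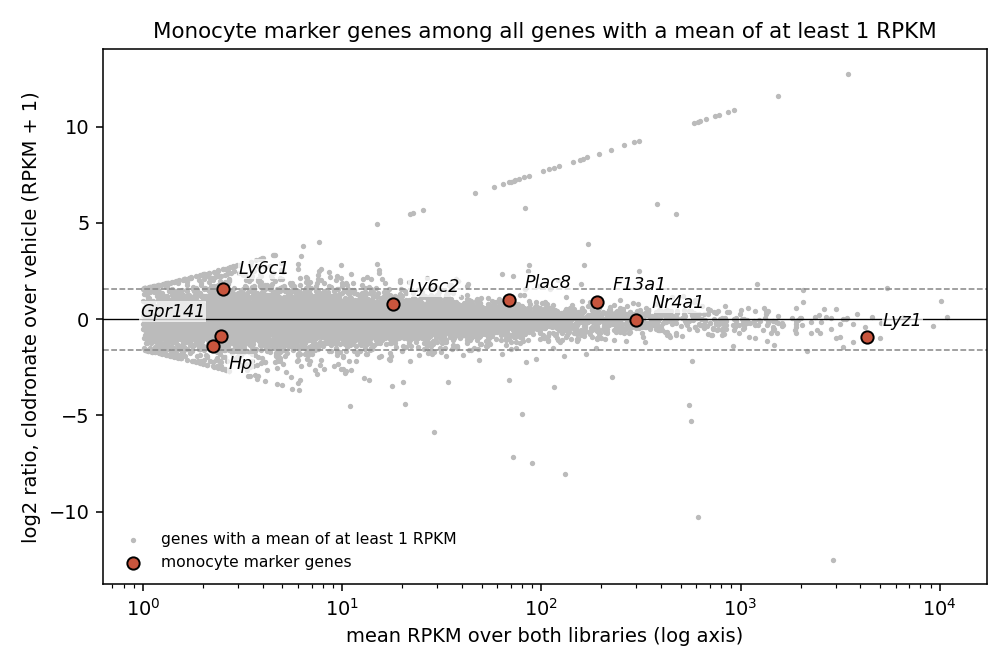
Log2 ratio of clodronate over vehicle (RPKM + 1) against the mean RPKM of both libraries on a log axis, for the 10982 genes that averaged 1 RPKM or more (grey) and the 8 monocyte marker genes among them (red), with dashed lines at 3-fold. All 8 lie between the dashed lines, with Ly6c1 nearest to the upper line at 1.56 and Hp nearest to the lower one at -1.40.

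Among the surface proteins, Ly6c1 and Ly6c2 encode the small lipid-anchored proteins that the Ly6C antibody binds. They are neighbours on chromosome 15, where the deposited table places Ly6c1 from 74874447 to 74879267 and Ly6c2 from 74938590 to 74942379 of mm9, the build named in the submitters' processing notes. Their coding sequences are near-identical, with 384 of 393 bases the same, so that some reads fit both. The first 120 coding bases are shown because they hold 6 of the 9 differing bases, which are in capitals. They were read from GENCODE M21 transcripts of the build GRCm38, where they lie on the minus strand in 2 exons, at chr15:75047420-75048511 for Ly6c1 and at chr15:75110578-75111667 for Ly6c2.
Ly6c1: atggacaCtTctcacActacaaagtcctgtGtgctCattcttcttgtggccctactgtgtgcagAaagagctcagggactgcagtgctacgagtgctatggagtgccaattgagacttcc
Ly6c2: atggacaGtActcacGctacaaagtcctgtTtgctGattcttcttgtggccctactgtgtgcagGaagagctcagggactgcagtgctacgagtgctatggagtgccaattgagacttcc

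Ly6c2, often used as a marker of classical monocytes, had 12.99 RPKM in vehicle and 23.0 RPKM in clodronate, a log2 ratio of 0.78. These values correspond to about 111 and 159 reads, and the ratio of reads, scaled to the mapped reads of each library, was 1.75, with a counting interval from 1.37 to 2.25. Ly6c1 had 0.786 RPKM in vehicle and 4.27 RPKM in clodronate, a log2 ratio of 1.56, which 2.97% of all genes compared reached or passed. It is the weaker of the pair in both libraries and rests on few reads, about 5 in vehicle and 23 in clodronate. Depending on which of its 5 annotated transcripts was counted, the estimates ran from 3.68 to 6.97 reads in vehicle and from 16.0 to 30.6 in clodronate. With 5 and 23 reads the scaled ratio was 5.63, with a counting interval from 2.09 to 18.9.

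How reads that fit both genes were assigned is not given in the sources used here. Of the 50-base words in the Ly6c1 transcripts 25.3% also occur in Ly6c2 transcripts, and of those in the Ly6c2 transcript 32.6% occur in Ly6c1. Summed over the pair, the level was 13.8 RPKM in vehicle and 27.3 RPKM in clodronate, a log2 ratio of 0.94, higher in clodronate like each gene by itself. Ly6c1 made up 5.71% of this sum in vehicle and 15.6% in clodronate.

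Ly6a and Ly6e, other genes of the Ly6 family, also had higher values in the clodronate library. Of 10 family genes found, 4 passed the minimum, Ly6c1 and Ly6c2 among them. All 4 had higher values in clodronate, where 51.6% of all genes compared were higher. Their median log2 ratio of 1.17 is the midpoint of 0.78 for Ly6c2 and 1.56 for Ly6c1. It therefore repeats the pair and gives no separate value for the rest of the family. Ly6a, which encodes the stem cell antigen Sca-1, had 21.1 RPKM in vehicle and 153 RPKM in clodronate, a log2 ratio of 2.80, and was the only one past 3-fold. Ly6e had 560 and 817 RPKM, a log2 ratio of 0.54. Of the other family genes, Ly6h, Ly6i, Ly6k and Lypd3 were listed at 0 in both libraries.

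The 250 bases before the start sites of Ly6c1 and Ly6c2 are shown because the pair had higher values in the same library. Capitals mark the letters GAGGAAGT, a sequence of the kind bound by PU.1, the transcription factor that directs the formation of monocytes and macrophages. The promoters are from RefSeq on GRCm38.p6, both on the minus strand, at chr15:75048664-75048913 for Ly6c1 and at chr15:75111938-75112187 for Ly6c2.
Ly6c1 promoter: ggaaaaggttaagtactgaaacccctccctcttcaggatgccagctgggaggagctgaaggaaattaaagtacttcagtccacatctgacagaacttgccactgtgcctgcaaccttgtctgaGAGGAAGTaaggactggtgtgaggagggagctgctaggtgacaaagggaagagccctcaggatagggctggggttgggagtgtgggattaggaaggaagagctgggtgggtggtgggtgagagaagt
Ly6c2 promoter: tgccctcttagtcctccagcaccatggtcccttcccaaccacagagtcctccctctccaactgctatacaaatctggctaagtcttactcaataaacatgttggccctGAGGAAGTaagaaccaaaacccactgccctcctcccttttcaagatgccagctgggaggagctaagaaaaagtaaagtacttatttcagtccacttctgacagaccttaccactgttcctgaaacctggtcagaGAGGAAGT

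The letters stand once in the Ly6c1 window, starting 127 bases before the start site, and at 2 places in the Ly6c2 window, starting 142 and 8 bases before it. Searched on both strands, 2.44% of 32851 such windows hold them. Promoter windows were found for 8 of the 9 genes, all but Hp, and among these the letters occur only in windows of Ly6c1 and Ly6c2. Both genes have 2 annotated windows, of which 1 is shown. The other window of Ly6c1 does not hold the letters. That of Ly6c2 overlaps the window shown and holds them once, starting 108 bases before its start site, which is the same place as the match at 142 bases. Other motifs were searched in the same way in all 12 windows of the 8 genes. TTGCNNAA, a form of the C/EBP motif, stands in windows of Lyz1 and Plac8 and in 9.56% of all windows, and TATAAA stands in windows of Cd177, Gpr141 and Ly6c1, at its other start site, and in 12.4% of all. AAAGGTCA, the motif NR4A1 binds as a monomer (1.34% of all), and TGACGTCA, the cyclic AMP response element (1.55%), stand in none of the 12. A match describes the letters and does not show that a factor is bound.

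Ly6c1 is also expressed by endothelial cells. Their 10 marker genes summed to 3.34 RPKM in vehicle and 8.31 RPKM in clodronate. Cdh5, which encodes VE-cadherin, had 0.480 and 3.24 RPKM and Pecam1 had 1.24 and 3.33 RPKM, while Vwf, von Willebrand factor, had 0.967 and 0.443 RPKM and the receptor gene Kdr had 0.650 and 0.831 RPKM. Tek, Emcn, Egfl7 and Cldn5 were listed at 0 in both libraries. Ly6C is also found on T cells and plasmacytoid dendritic cells. The T and NK cell genes summed to 13.5 and 21.4 RPKM, of which Cd2 gave 2.39 and 11.1 RPKM and Cd4 gave 10.3 and 7.72 RPKM, with Cd3e, Cd3g and Ncr1 listed at 0 in both. The plasmacytoid dendritic cell genes summed to 27.3 and 40.6 RPKM, of which Tcf4 alone gave 26.8 and 37.9 RPKM. Siglech, which defines the plasmacytoid cells, had 0.0331 RPKM in vehicle and was listed at 0 in clodronate. The 7 genes of B and plasma cells summed to 3.15 and 3.44 RPKM. The part of these cells in the Ly6c1 and Ly6c2 values was not tested.

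Cd177, on chromosome 7 from 25529001 to 25545330 of mm9, encodes an adhesion protein of the neutrophil surface. It was listed at 0 in vehicle and reached 0.673 RPKM in clodronate, which corresponds to about 19 reads with a counting interval from 11.4 to 29.7. A count of 0 has a counting interval up to 3.69 reads, and 3 reads would be 0.0867 RPKM for this gene in the vehicle library. A value listed at 0 may also be a failed estimate, and no fold is given. In the 50-base words of its transcript, 5.76% also occur in other genes.

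Most neutrophil genes were listed at 0 in both libraries, which may be failed estimates, and Ly6g was not found. Of 15 neutrophil genes found, 9 were listed at 0 in both, among them the granule genes Mpo, Elane, Ltf, Camp and Ngp, and the 15 genes summed to 52.3 RPKM in vehicle and 52.8 RPKM in clodronate. Csf3r, the receptor for granulocyte colony-stimulating factor, had 26.4 and 19.3 RPKM and S100a8 had 12.7 and 23.1 RPKM, while S100a9, whose protein pairs with that of S100a8, was listed at 0 in both. The median log2 ratio of the 5 genes that passed the minimum was -0.43.

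Gpr141, an orphan G protein-coupled receptor of myeloid cells, lies on chromosome 13 from 19841550 to 19916126 of mm9. It had 3.46 RPKM in vehicle and 1.43 RPKM in clodronate, a log2 ratio of -0.88. The estimated reads were 154 and 52, and the value in vehicle was 2.42 times that in clodronate, with a counting interval from 1.76 to 3.38. None of the 50-base words of its transcript occurred in another gene.

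**Figure D3:**
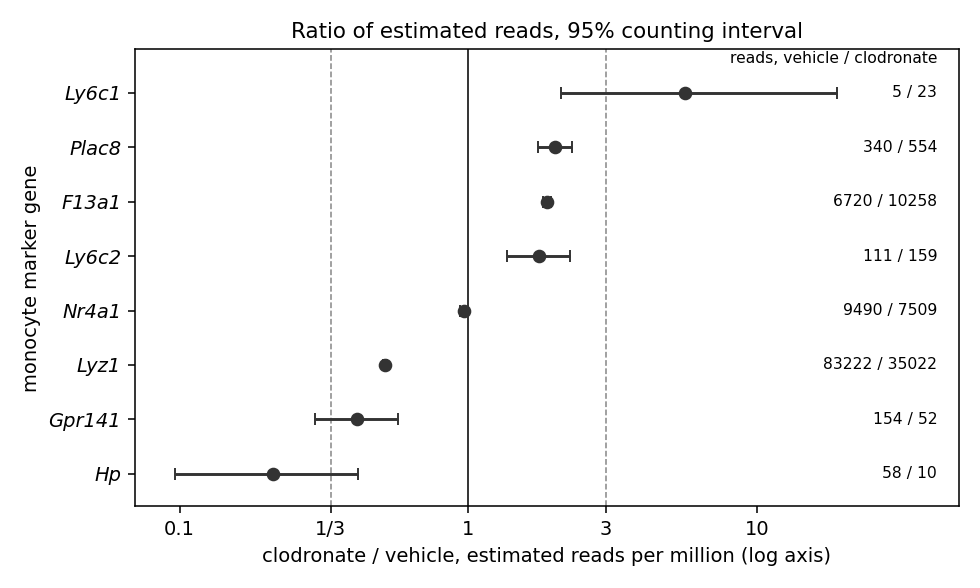
Ratio of estimated reads, scaled to the mapped reads of each library, clodronate over vehicle, on a log axis for the 8 monocyte marker genes with reads in both libraries, with 95% intervals for counting error, the rounded reads at the right and dashed lines at 3-fold. The intervals of Ly6c1, Ly6c2, Plac8 and F13a1 lie above 1, those of Hp, Gpr141 and Lyz1 lie below 1, and that of Nr4a1, from 0.939 to 0.998, reaches almost to 1.

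Among the secreted and granule proteins, Hp encodes haptoglobin, which binds hemoglobin released from red cells and is stored in neutrophil granules besides being made in the liver. The gene lies on chromosome 8 from 112099027 to 112103072 of mm9. It had 3.69 RPKM in vehicle and 0.779 RPKM in clodronate, a log2 ratio of -1.40, the lowest of the 8 genes compared, and 3.13% of all genes compared had a ratio as low or lower. The values correspond to about 58 and 10 reads, and the level in vehicle was 4.74 times that in clodronate, with a counting interval from 2.40 to 10.4.

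Cd163 and Hmox1, which act with haptoglobin in the clearance of hemoglobin, had higher values in the clodronate library. Cd163, the macrophage receptor that takes up haptoglobin with its hemoglobin, had 17.5 RPKM in vehicle and 42.4 RPKM in clodronate, a log2 ratio of 1.23. Hmox1, the heme oxygenase that breaks down the heme, had 396 and 789 RPKM, a log2 ratio of 0.99. Hpx, which encodes the heme carrier hemopexin, was listed at 0 in vehicle and had 0.696 RPKM in clodronate.

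Lyz1 encodes a lysozyme, an enzyme that cuts bacterial cell walls, and is known best from Paneth cells of the gut, whereas its neighbour Lyz2 is the lysozyme gene of macrophages and monocytes. The table places Lyz1 on chromosome 10 from 116724850 to 116729924 of mm9. The coding sequences agree in 422 of 444 bases. The first 120 coding bases, shown with the differing bases in capitals, hold 11 of the 22 differences and lie in 1 exon on the minus strand of GRCm38, at chr10:117292719-117292838 for Lyz1 and at chr10:117282123-117282242 for Lyz2.
Lyz1: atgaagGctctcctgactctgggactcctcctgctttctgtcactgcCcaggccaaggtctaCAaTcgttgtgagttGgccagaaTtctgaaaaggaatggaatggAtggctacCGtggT
Lyz2: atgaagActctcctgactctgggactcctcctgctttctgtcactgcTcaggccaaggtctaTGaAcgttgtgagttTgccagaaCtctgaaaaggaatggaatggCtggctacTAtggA

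Lyz1 had 5688 RPKM in vehicle and 2948 RPKM in clodronate, a log2 ratio of -0.95. At about 83222 and 35022 reads, counting error was small, and the level in vehicle was 1.94 times that in clodronate, with an interval from 1.92 to 1.97. Lyz2 had 10534 RPKM in vehicle and 11189 RPKM in clodronate, a log2 ratio of 0.087. The sum of the pair was 16222 and 14137 RPKM, a log2 ratio of -0.20, and Lyz1 made up 35.1% of it in vehicle and 20.9% in clodronate. Of the 50-base words of the Lyz1 transcript 16.1% also occur in Lyz2, and the assignment of such reads may have moved the split between the genes.

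F13a1 encodes the A subunit of coagulation factor XIII, the transglutaminase that cross-links fibrin, and lies on chromosome 13 from 36959046 to 37142113 of mm9. It had 132 RPKM in vehicle and 247 RPKM in clodronate, a log2 ratio of 0.90. At about 6720 and 10258 reads, the scaled ratio was 1.87, with a counting interval from 1.81 to 1.93. F13b, which encodes the carrier subunit made in the liver, was listed at 0 in both libraries. Plau, the plasminogen activator urokinase, had 19.0 and 65.2 RPKM, a log2 ratio of 1.73, and its receptor Plaur had 333 and 283 RPKM. Of the 12 partner genes of haptoglobin and factor XIII, 10 passed the minimum, 6 of them higher and 4 lower in clodronate. Their median log2 ratio was 0.13, where 51.6% of all genes compared were higher.

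Among the intracellular proteins, Plac8 encodes a small cysteine-rich protein abundant in classical monocytes. It lies on chromosome 5 from 100982751 to 101001224 of mm9. It had 45.4 RPKM in vehicle and 91.8 RPKM in clodronate, a log2 ratio of 1.002. The estimated reads were 340 and 554, and the scaled ratio was 1.99, with a counting interval from 1.74 to 2.29. No 50-base word of its transcript occurred in another gene.

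Nr4a1, on chromosome 15 from 101097276 to 101105225 of mm9, encodes the nuclear receptor NUR77. It had 303 RPKM in vehicle and 294 RPKM in clodronate, a log2 ratio of -0.042, with about 9490 and 7509 reads. The gene is also an immediate early gene, switched on within minutes by many stimuli, and the related genes were high in both libraries as well. Nr4a2 had 135 and 125 RPKM and Nr4a3 had 24.0 and 30.6 RPKM. Of 13 other immediate early genes, 12 had at least 10 RPKM in both libraries, with Dusp1 at 786 and 796 RPKM and Fos at 568 and 604 RPKM. Of the 13 genes 11 were higher and 2 lower in clodronate, none by 2-fold, with a median log2 ratio of 0.20, where 51.6% of all genes compared were higher. The part of a response to tissue dissociation or sorting in the Nr4a1 values was not tested.

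Other markers of classical monocytes were divided in direction. All 16 genes of the list passed the minimum, 5 with higher and 11 with lower values in the clodronate library, where 51.6% of all genes compared were higher. The median log2 ratio was -0.22. Ccr2, the receptor through which these cells leave the marrow, had 48.5 RPKM in vehicle and 37.8 RPKM in clodronate, a log2 ratio of -0.35. Chil3 (36.4 and 14.8 RPKM), Mgst1 (111 and 50.2 RPKM) and Clec4e (93.1 and 44.3 RPKM) were at least 2-fold lower. The share of such genes was 6.77% among all genes compared and 3.62% among those that averaged 10 RPKM or more. The Fc receptor gene Fcgr1 had 22.5 and 42.3 RPKM and fibronectin Fn1 had 1530 and 2269 RPKM. Ifitm6 was listed at 0 in vehicle, which may be a failed estimate, and had 43.7 RPKM in clodronate, and no fold is given. It passed the minimum through the clodronate library alone and is counted among the 5 higher genes and in the median.

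The same held for markers of non-classical monocytes. Of 12 genes 11 passed the minimum, 5 with higher and 6 with lower values in the clodronate library, where 51.6% of all genes compared were higher. The median log2 ratio was -0.091. Cx3cr1, the fractalkine receptor of these cells and of many macrophages, had 98.3 and 103 RPKM. Treml4 had 4.75 and 3.76 RPKM, Spn, which encodes CD43, had 16.9 and 20.5 RPKM, and Cd300e had 2.16 and 0.509 RPKM. Ace was listed at 0 in vehicle and had 0.246 RPKM in clodronate.

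**Figure D4:**
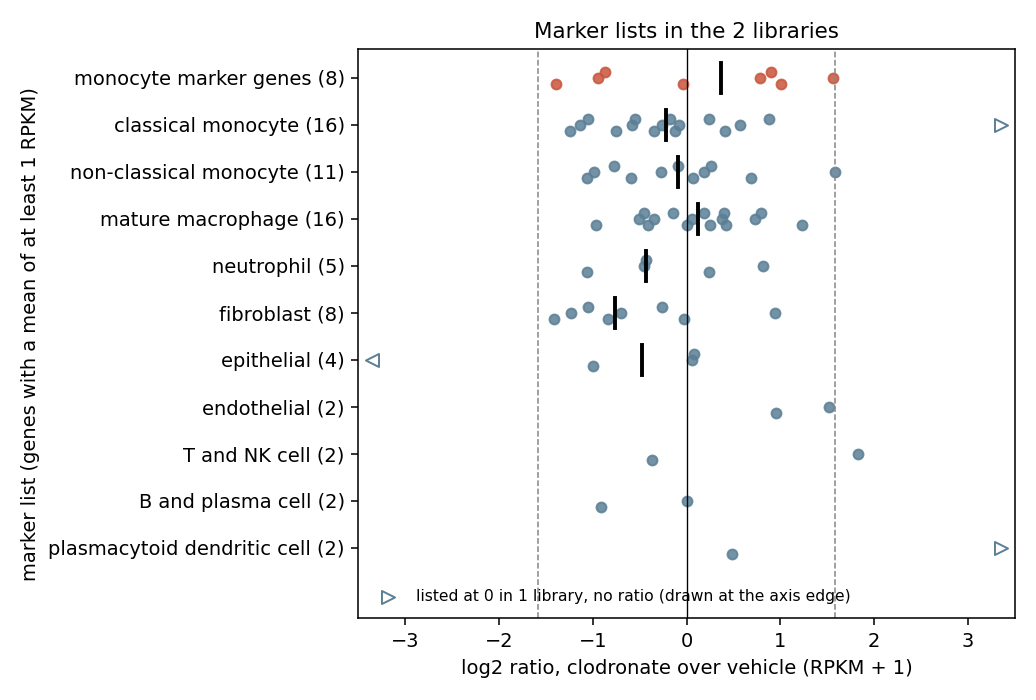
Log2 ratio of clodronate over vehicle (RPKM + 1) for each gene that averaged 1 RPKM or more in the monocyte marker genes (red) and 10 marker lists (blue), with the number of genes in brackets, a black bar at the median of lists with at least 3 genes and dashed lines at 3-fold. The monocyte marker genes lie on both sides of 0, as do both monocyte lists, and the open triangles at the edges mark Ifitm6, Cox6a2 and Krt7, which were listed at 0 in 1 library and have no ratio drawn. The median bars of the classical monocyte and epithelial lists include Ifitm6 and Krt7.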

How the data were processed

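RNA sequencing had been done on 1 vehicle and 1 clodronate library. The authors deposited RPKM for 23170 gene loci per library, and the submitters' processing notes name CASAVA 1.8.2, TopHat2 2.0.9, Bowtie 0.12.9, Cufflinks 2.2.1 and Cuffdiff and the build mm9, without their settings. The article that carries the title of the series does not describe these libraries. Loci were summed by symbol, with the RefSeq accession in place of 26 symbols that had become numbers, which left 22886 genes. Groups came from the sample descriptions. Genes that averaged 1 RPKM or more were compared by log2((clodronate + 1)/(vehicle + 1)), without a test, and counted at 3-fold.

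Reads were estimated for loci with 1 RefSeq accession by fitting 1/RPKM to the length of GENCODE M21 transcripts over loci with 1 read, and for Ly6c1 and F13a1 with the mean of their shortest and longest transcripts. Intervals are exact Poisson intervals for reads and exact binomial intervals for ratios, at 95%, and PCR duplicates were not known. The 9 genes, the marker lists and the comparisons were chosen with earlier results of these data known. All 9 genes could be named, and of each list the highest and lowest genes by level, those past 3-fold and further members. Of 156 list genes, 3 were not found and 4 were found by accession. Single values of some list genes are left out here. Alternatives were another pseudocount, other minimums, centring, upper quartile scaling, the highest row per symbol, 2-fold and summed gene pairs, and a correction for GC content and length and the ratio of estimated reads were added after seeing the data. On simulated data, all 200 of 10982 genes changed 8-fold were recovered and 0 others were called. The changed genes were set to at least 10 RPKM and the noise was set small, so this result was fixed by the settings. It checks the code and does not give the rate of missed or false 3-fold calls in these libraries. Python 3.11.15, numpy 2.4.6, pandas 2.3.3, scipy 1.17.1 and matplotlib 3.10.9 were used.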

Additional observations from a re-analysis of the deposited data

How the results depend on the processing

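No paired analysis was possible because there is only 1 library per condition. The 8 compared genes kept their direction under every alternative run. Ly6c1 passed 3-fold with a pseudocount of 0.1 RPKM (log2 ratio 2.30), once GC content and length were corrected for (1.84) and as a ratio of estimated reads (2.49), and Hp passed it with a pseudocount of 0.1 RPKM (-2.11) and as a ratio of estimated reads (-2.25). A pseudocount of 1 RPKM shrinks the ratios of such low values by construction. In the count of genes at least 3-fold higher, 0 became 1 with a pseudocount of 0.1 RPKM, 1 once GC content and length were corrected for and 2 at 2-fold. In the count of genes at least 3-fold lower, 0 became 1 with a pseudocount of 0.1 RPKM and 1 at 2-fold. Ly6c2 passed 2-fold once GC content and length were corrected for (1.06), and Lyz1 did so after upper quartile scaling (-1.01). Gpr141 passed 2-fold with a pseudocount of 0.1 RPKM (-1.22) and as a ratio of estimated reads (-1.28). With a mean of at least 5 RPKM, Ly6c1, Gpr141 and Hp gave no value. The log2 ratio of Lyz1 was -0.20 when Lyz2 was added to it, and otherwise lay between -1.01 and -0.79. Marker lists with fewer than 3 genes past the minimum were given no median. Medians were recomputed for 9 lists under 3 alternatives, and those of the Ly6 family, the immediate early genes and the partner genes were added to these after seeing the data. All 9 kept their sign with a pseudocount of 0.1 RPKM and once GC content and length were corrected for, and 7 kept it with no minimum. Without the minimum, the genes at 0 in both libraries entered with a ratio of 0, and the medians of the neutrophil and the epithelial list became 0 and that of the Ly6 family 0.21. Without replicates, a difference between the conditions and a difference between 2 mice, sorts or preparations cannot be told apart.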
